A study of Ovis aries with 6 samples.

Results

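Genes of cholesterol synthesis, sensing, uptake and disposal were examined in RNA of 6 sheep samples labelled hypothalamus. The members were given by name, as 31 gene symbols, and 27 of these were gene names of the deposited tables, out of 26067 features. Another 4 symbols, EBP, SCAP, CYP51A1 and CYP46A1, were not gene names there, but 4 rows with LOC names carried these annotations and are described separately. HP stands for high reproduction and held 3 healthy small-tailed Han sheep. LP stands for low reproduction and held 3 healthy Wadi sheep, whose body composition the design text calls similar. The labels give neither a treatment nor an age for either group, and breed and reproductive class cannot be told apart in this design. RNA was converted to full-length cDNA, amplified by PCR and read by Oxford Nanopore sequencing.

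Animal cells make cholesterol from acetyl-CoA through mevalonate, squalene and lanosterol, and the later enzymes trim and reduce lanosterol to cholesterol. Supply is set by a feedback loop in the endoplasmic reticulum, where SCAP and the INSIG proteins hold the SREBP transcription factors when sterol is plentiful and release them when it is scarce. Brain makes nearly all of its own cholesterol because lipoproteins of the blood do not cross the blood-brain barrier. Most of that cholesterol lies in myelin, the membrane that oligodendrocytes wrap around axons. Steroid- and peptide-secreting glands also take up cholesterol from blood lipoproteins.

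The libraries held between 1981644 and 2732911 counts, so that the upper limit behind a zero, 3 counts, was 1.10 to 1.51 CPM, the counts scaled to library size. Of 15 hypothalamic peptide genes, GNRH1, KISS1, NPVF and HCRT had no count in any library. The 15 summed to 96.5 to 149 CPM in HP, mostly from TRH, against 4.82 to 9.59 CPM in LP, and the 1 gene tested was called higher in HP. Markers of the anterior pituitary summed to 147 CPM or less in each HP library, against 47223 to 300162 CPM in LP. All 12 tested were called lower in HP, where TSHB, PITX1, POU1F1 and TBX19 had no count. Neuron markers summed to 7894 to 8606 CPM in HP and 528 to 961 CPM in LP, and 11 of 13 tested were called higher in HP. Markers of cerebellar granule and Purkinje neurons summed to 6779 to 8054 CPM in HP, against 220 to 428 CPM in LP, with 13 of 14 called higher in HP. Pituitary, neuron and cerebellar markers thus moved with the groups in every comparison of HP with LP below. The tissue sampled cannot be told apart from breed and reproductive class in this design, and its part in the cholesterol genes was not tested. Oligodendrocyte markers summed to 996, 693 and 747 CPM in HP replicates 1, 2 and 3, against 84.0, 28.9 and 6213 CPM in LP replicates 1, 2 and 3, and none of 9 tested was called. LP replicate 3 thus stood apart from the other LP libraries, and each result below that rests on it is given with and without it. The tables' column names share only a number with the sample titles, and every statement on HP and LP rests on that match. In bulk tissue, fewer cells of a type and less RNA per cell cannot be told apart.

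With all 6 libraries, most of the cholesterol genes called were lower in HP, a balance that changed with LP replicate 3 and with the filter on low counts. Of the 27 members, 19 had enough counts for a test, 9 of these fell in HP (47.4%) and 1 rose (5.26%), at an adjusted p of 0.05 in the quasi-likelihood test of edgeR. The background was large, since 24.1% of all 13078 features tested were called lower in HP and 27.1% higher. The median log2 fold change, HP over LP, was -1.77 over the tested members and 0.02 over all features tested. Without LP replicate 3 these medians were -0.74 and 0.05. They were -0.79 and -0.04 where at least 10 counts were required in every library. The 9 genes that fell were FDPS, IDI1, FDFT1, MSMO1, SC5D, INSIG2, NPC2, STARD4 and TSPO, and the gene that rose was TM7SF2. The 9 became 6 without HP replicate 1 (background 15.7%) and 5 without HP replicate 2 or 3 (background 14.8% and 18.2%). In these 3 settings 22 members were tested. Without LP replicate 3 the 9 became 7 (background 27.2%) and the 1 became 4 (background 29.7%). Calls over all features thus also fell when an HP library was left out, which bears on every call lost that way below.

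The filter on low counts bears on these numbers. A feature needed 4.21 CPM in 3 libraries, and 5 of the 9 genes that fell (FDFT1, SC5D, INSIG2, STARD4 and NPC2) reached this level in all LP libraries but not in all HP libraries, so their count among the tested members is no independent support. Where 10 counts were required in every library, 14 members were tested, of which 4 were called lower in HP (FDPS, MSMO1, IDI1 and TSPO; background 22.5%) and 2 higher (TM7SF2 and ABCA1; background 23.6%). With no filter, all 27 members were tested, with 12 called lower (background 14.9%) and 2 higher (background 18.3%). The 3 HP values lay wholly below the 3 LP values in 9 of the 19 tested members (background 29.0%) and wholly above in 2 (background 33.9%). Over all 27 members held, the counts were 15 and 2, and 6 of the 15 were genes with too few counts for the test. No matching share over all features held was computed, so these counts are description only.

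**Figure D1:**
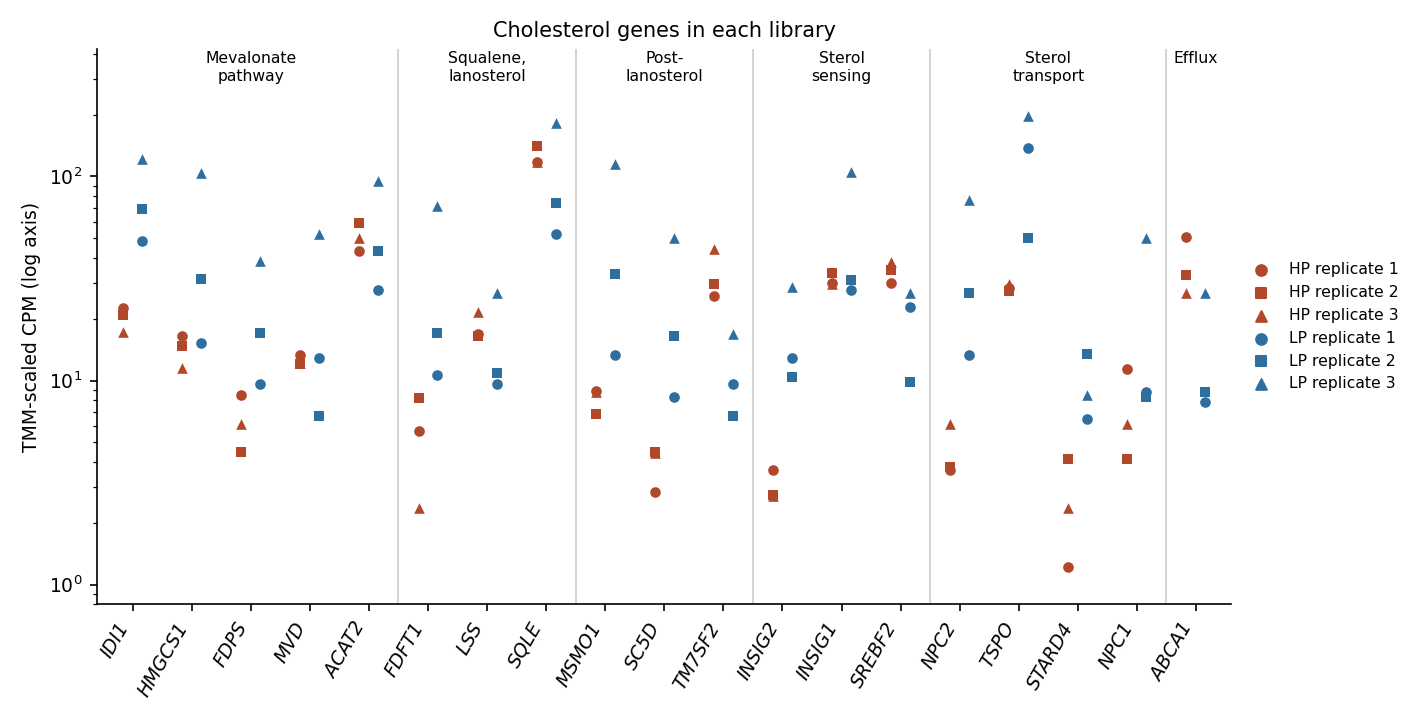
Level of each tested member in each library, as CPM scaled with TMM factors on a log axis, with HP libraries (red) left of LP libraries (blue) and marker shapes for the replicates. LP replicate 3, the blue triangle, is the highest LP value in 18 of 19 genes, whereas the 3 HP values mostly lie close together.

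The mevalonate pathway supplies the isoprene units from which sterols are built. IDI1, the isomerase that makes dimethylallyl diphosphate, had 22.7, 20.9 and 17.3 CPM in HP and 48.3, 69.4 and 121 CPM in LP. The groups did not overlap, and the HP values lay closer together than the LP values. IDI1 was 3.92-fold lower in HP (log2 fold change -1.97 ± 0.37 SE, adjusted p = 0.00451 edgeR), and 2.96-fold lower without LP replicate 3. FDPS, which makes farnesyl diphosphate, had 8.50, 4.46 and 6.11 CPM in HP and 9.67, 17.1 and 38.6 CPM in LP. Its groups did not overlap but nearly met, at HP replicate 1 and LP replicate 1. FDPS was 3.42-fold lower in HP (adjusted p = 0.0312, edgeR), but its call was lost without LP replicate 3 (2.15-fold, adjusted p = 0.0537) and without HP replicates 1, 2 or 3 (adjusted p = 0.0698, 0.124 and 0.0989).

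HMGCS1, the HMG-CoA synthase of the cytosol, missed the threshold with 16.6, 14.8 and 11.5 CPM in HP and 15.2, 31.6 and 104 CPM in LP (3.50-fold lower, adjusted p = 0.0540, edgeR). LP replicate 1 lay inside the HP range and LP replicate 3 far above it, and without LP replicate 3 the difference was 1.67-fold (adjusted p = 0.120). Without LP replicate 1 or 2 HMGCS1 was called (4.70-fold, adjusted p = 0.0142, and 4.11-fold, adjusted p = 0.0438, edgeR). MVD, the decarboxylase of mevalonate diphosphate, averaged 12.5 ± 0.721 CPM in HP (SD, n = 3), against 12.9, 6.74 and 52.4 CPM in LP. ACAT2, the cytosolic thiolase that starts the pathway, averaged 50.9 ± 8.08 CPM in HP and 55.3 ± 35.5 CPM in LP (SD, n = 3 each). Neither was called (adjusted p = 0.288 and 0.839, edgeR), and without LP replicate 3 both fitted values turned, to log2 fold changes of 0.30 and 0.50.

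The kinases of the pathway were too sparse for the test. MVK, mevalonate kinase, had 2, 2 and 5 counts in HP, against 12, 6 and 18 in LP. PMVK, phosphomevalonate kinase, had no count in HP and 5, 10 and 1 in LP, which is at least 1.94-fold lower in HP when each HP library is set at 3 counts. HP lay below LP in each kinase, although LP replicate 3 of PMVK held a single count, and both were called lower in HP only where no filter was applied (adjusted p = 0.0297 and 0.0307, edgeR).

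Of the steps from farnesyl diphosphate to lanosterol, FDFT1 was called lower in HP, whereas SQLE and LSS were not called. The difference between their fold changes was not tested. FDFT1, the squalene synthase that commits the pathway to sterols, had 5.67, 8.24 and 2.38 CPM in HP and 10.6, 17.1 and 71.5 CPM in LP. Its groups did not overlap, and it was 6.03-fold lower in HP (adjusted p = 0.0310, edgeR). Without LP replicate 3 FDFT1 was 2.59-fold lower and missed the threshold (adjusted p = 0.0508), as it did without HP replicates 1, 2 or 3 (adjusted p = 0.105, 0.0658 and 0.103). SQLE, the squalene epoxidase that is a rate-limiting step, had 118, 141 and 118 CPM in HP and 52.0, 74.1 and 182 CPM in LP. The HP values lay between LP replicates 1 and 2 on one side and LP replicate 3 on the other, and SQLE was not called (log2 fold change 0.29 ± 0.45 SE, adjusted p = 0.602, edgeR). Without LP replicate 3 SQLE was 1.95-fold higher in HP (adjusted p = 0.00956, edgeR). LSS, which closes the ring to give lanosterol, had the same order, with 17.0, 16.5 and 21.7 CPM in HP and 9.67, 10.9 and 27.0 CPM in LP (adjusted p = 0.689, or 1.75-fold higher with adjusted p = 0.0539 without LP replicate 3, edgeR).

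After lanosterol, MSMO1 and SC5D were lower in HP and TM7SF2 was higher, and these were the 3 members with enough counts for the test. MSMO1, the C4-methyl sterol oxidase, had 8.90, 6.86 and 8.83 CPM in HP and 13.4, 33.2 and 115 CPM in LP, and SC5D, the sterol C5-desaturase, 2.83, 4.46 and 4.41 CPM in HP and 8.29, 16.6 and 49.8 CPM in LP. In both genes every HP value was below every LP value, and LP replicate 3 was highest. MSMO1 was 6.54-fold lower in HP (adjusted p = 0.0201) and SC5D 6.24-fold lower (adjusted p = 0.0156), each by edgeR. Without LP replicate 3 they were 2.87-fold and 3.18-fold lower and still called (adjusted p = 0.0152 and 0.0141, edgeR). Without HP replicates 1, 2 or 3 both calls were lost (adjusted p = 0.0761, 0.0834 and 0.0678 for MSMO1, and 0.0722, 0.0590 and 0.0535 for SC5D).

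TM7SF2 encodes a sterol C14-reductase, a step that LBR, a protein of the inner nuclear membrane, also carries out. TM7SF2 had 25.9, 29.9 and 44.1 CPM in HP and 9.67, 6.74 and 16.9 CPM in LP. All HP libraries were above all LP libraries, and TM7SF2 was 3.00-fold higher in HP (log2 fold change 1.58 ± 0.40 SE, adjusted p = 0.0147, edgeR). LBR, in contrast, had 8, 5 and 3 counts in HP, against 19, 9 and 29 in LP, too few for the main test, and was called lower in HP where no filter was applied (4.15-fold, adjusted p = 0.0323, edgeR). The difference between these fold changes was not tested.

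The other members of the late pathway were near the limit of detection. NSDHL, the decarboxylating sterol dehydrogenase, had 0, 0 and 2 counts in HP, against 2, 7 and 8 in LP. HSD17B7, the 3-ketosteroid reductase, had 8, 4 and 2 counts in HP, against 8, 18 and 21 in LP. DHCR7, the last reductase of one branch, had 0, 1 and 0 counts in HP, against 0, 3 and 3 in LP, a difference that was not detectable at this depth. None of these 3 was called where no filter was applied (adjusted p = 0.0599, 0.0518 and 0.217, edgeR). Of the rows with LOC names, LOC101113583, annotated as lanosterol 14-alpha demethylase (CYP51), had 19, 13 and 9 counts in HP, against 27, 29 and 145 in LP. It was 6.84-fold lower in HP (adjusted p = 0.0232, edgeR), 2.79-fold without LP replicate 3, and was not called without HP replicates 1, 2 or 3 (adjusted p = 0.0574, 0.0899 and 0.0869). LOC101112029, the gene ID that RefSeq names EBP, a sterol isomerase, was not called (12, 4 and 6 counts in HP, against 10, 9 and 28 in LP, adjusted p = 0.0866, edgeR).

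**Figure D2:**
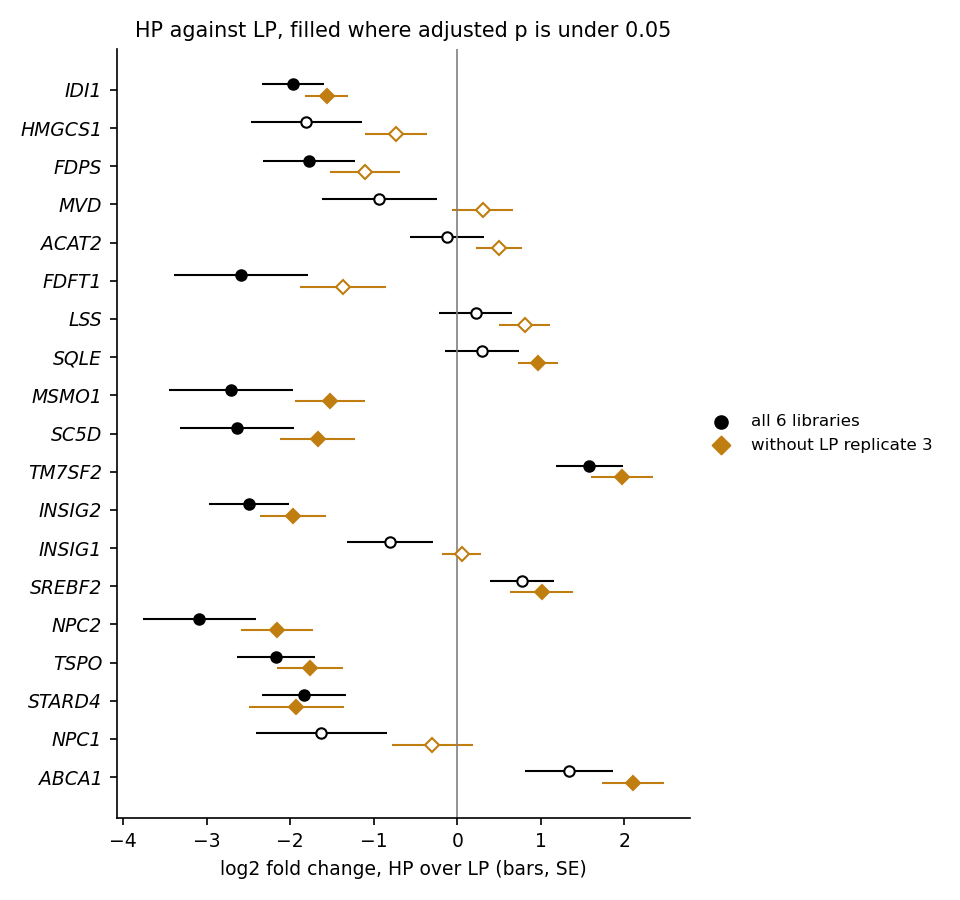
Log2 fold change of each tested member, HP over LP, with its SE, from all 6 libraries (black circles) and without LP replicate 3 (orange diamonds), filled where the edgeR adjusted p is under 0.05. Without LP replicate 3 the values of MVD, ACAT2 and INSIG1 cross 0, SQLE, SREBF2 and ABCA1 become called as higher in HP, and IDI1, INSIG2, NPC2, TSPO, STARD4, MSMO1 and SC5D stay called as lower.

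Among the sterol sensors, INSIG2 fell in HP and INSIG1, its paralog and a target of SREBP, was not called. INSIG2 had 3.64, 2.75 and 2.72 CPM in HP and 12.9, 10.4 and 28.6 CPM in LP. The groups were far apart, and INSIG2 was 5.63-fold lower in HP (log2 fold change -2.49 ± 0.48 SE, adjusted p = 0.00512, edgeR) and 3.91-fold lower without LP replicate 3. INSIG1 had 29.9, 33.6 and 29.9 CPM in HP and 27.6, 31.1 and 105 CPM in LP. Its 3 HP values and those of LP replicates 1 and 2 shared one range and LP replicate 3 alone was apart (adjusted p = 0.224, edgeR). Its fitted log2 fold change was 0.054 without that library.

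SREBF2 encodes SREBP-2, the main transcription factor of sterol synthesis genes, and SREBF1 encodes SREBP-1, which acts more on fatty acid synthesis. SREBF2 had 29.9, 34.7 and 38.0 CPM in HP and 23.0, 9.85 and 27.0 CPM in LP. Every HP value was above every LP value, but SREBF2 missed the threshold (1.71-fold higher, adjusted p = 0.122, edgeR), and without LP replicate 3 it passed narrowly (2.02-fold, adjusted p = 0.0498, edgeR). SREBF1 had 0, 0 and 1 counts in HP, against 0, 4 and 3 in LP, which allows no comparison. The row that RefSeq names SCAP (LOC101122312) had 36, 43 and 45 counts in HP, against 19, 18 and 12 in LP and was 1.82-fold higher in HP (adjusted p = 0.0380, edgeR). Its call was lost whichever of the 6 libraries was left out, with adjusted p from 0.0558 to 0.0896.

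Of the 4 tested members that move sterol inside the cell, 3 were called lower in HP (background 24.1%), and 2 of these, NPC2 and STARD4, reached the filter level in 1 of 3 HP libraries. NPC2, the soluble lysosomal protein that hands cholesterol to NPC1, had 3.64, 3.78 and 6.11 CPM in HP and 13.4, 26.9 and 76.8 CPM in LP. No values overlapped, and NPC2 had the largest fold among the called members, at 8.51-fold lower in HP (log2 fold change -3.09 ± 0.68 SE, adjusted p = 0.00830, edgeR), or 4.48-fold without LP replicate 3. NPC1, the membrane protein that takes cholesterol out of the lysosome, was not called, with 11.3, 4.12 and 6.11 CPM in HP and 8.75, 8.29 and 49.8 CPM in LP (adjusted p = 0.119, edgeR). LP replicates 1 and 2 lay within the HP range of NPC1, and its log2 fold change of -1.63 was -0.30 without LP replicate 3.

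TSPO, a protein of the outer mitochondrial membrane that binds cholesterol and is used as a marker of microglial activation, had 28.3, 27.5 and 29.9 CPM in HP and 139, 49.7 and 197 CPM in LP. The HP libraries were nearly equal and all below LP, and TSPO was lower in HP (log2 fold change -2.17 ± 0.47 SE, adjusted p = 0.00795, edgeR), or 3.39-fold without LP replicate 3. Microglia and macrophage markers summed to 100.3, 126 and 76.8 CPM in HP and 199, 258 and 498 CPM in LP, with 6 of 9 tested genes called lower in HP, and their part in the TSPO result was not tested. STARD4, a soluble sterol carrier, had 1.21, 4.12 and 2.38 CPM in HP and 6.45, 13.5 and 8.47 CPM in LP. It was the 1 tested member that was highest in LP replicate 2, and it was 3.56-fold lower in HP (adjusted p = 0.0197, edgeR). Its call was lost without HP replicate 1, HP replicate 3 or LP replicate 2 (adjusted p = 0.0823, 0.0804 and 0.0518).

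Cholesterol leaves brain cells as lipoprotein particles loaded by ABC transporters, or as the oxysterol made by CYP46A1, an enzyme of neurons, and SOAT1 stores it as esters. ABCA1, the transporter that loads apolipoproteins, had 50.6, 33.0 and 26.8 CPM in HP and 7.83, 8.81 and 27.0 CPM in LP. LP replicate 3 reached HP replicate 3, and LP replicates 1 and 2 were well below all HP libraries. ABCA1 missed the threshold with all libraries (2.53-fold higher in HP, adjusted p = 0.0656, edgeR) and passed without LP replicate 3 (4.29-fold, adjusted p = 0.00230, edgeR), by DESeq2 (adjusted p = 0.0429) and by limma-voom (adjusted p = 0.0329). SOAT1 had 4, 2 and 2 counts in HP, against 5, 11 and 6 in LP. The row annotated as CYP46A1 (LOC101117622) had 9, 17 and 25 counts in HP, against 1, 0 and 16 in LP and was not called (adjusted p = 0.414, edgeR), but was called higher in HP without LP replicate 3, where LP held a single count (adjusted p = 0.00563, edgeR).

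The LP libraries differed among themselves more than the HP libraries did. Of the 11 synthesis enzymes tested, LP replicate 3 was the highest of all 6 libraries in 10 and the highest of its group in 11. LP replicate 3 was the highest library in 15 of the 19 tested members and in 20.0% of all features tested. Its level was more than 2 times the mean of LP replicates 1 and 2 in 17 of 19 members (89.5%), and in 14.1% of all features. The ratio ran from 0.850 for STARD4 to 5.84 for NPC1, with 5.34 for MVD, 5.16 for FDFT1 and 4.96 for MSMO1. The enzymes summed to 283, 319 and 297 CPM in HP and 217, 326 and 874 CPM in LP. These sums overlapped between the groups, with LP replicate 1 below the HP range, LP replicate 2 just above it and LP replicate 3 far above it.

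Without LP replicate 3, 7 of the 19 members were lower in HP (background 27.2%) and 4 higher (background 29.7%), and all 7 had also been called with it. The 4 higher members were SQLE, TM7SF2, SREBF2 and ABCA1. Fitted values were above 0 in 8 members and below 0 in 11, against 5 and 14 with all libraries. Oligodendrocyte markers moved with LP replicate 3 (6213 CPM), as did astrocyte markers. The astrocyte markers summed to 6311, 7619 and 7988 CPM in HP and 209, 181 and 10843 CPM in LP. Choroid plexus and ependyma markers were also highest in LP replicate 3 (7395 CPM). They reached 4556 CPM in HP replicate 3, against 67.4 to 130 CPM in the other libraries. Mural cell and fibroblast markers were highest in LP replicate 1 (5054 CPM). The part of these cell types in the enzyme levels was not tested. HP libraries held 693 to 996 CPM of oligodendrocyte markers, above LP replicates 1 and 2. Of the 11 tested enzymes, SQLE, LSS, TM7SF2 and ACAT2 were higher in every HP library than in LP replicates 1 and 2. IDI1, FDPS, FDFT1, MSMO1 and SC5D were lower in every HP library than in those 2, and HMGCS1 and MVD were mixed.

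**Figure D3:**
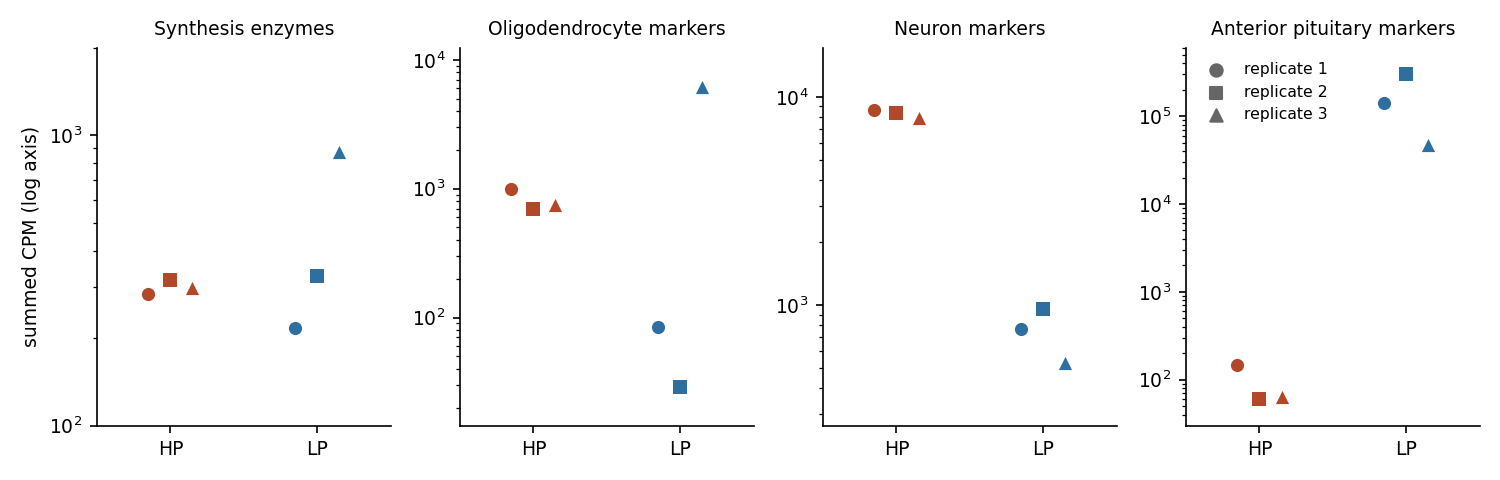
Summed CPM per library, on log axes, of the 11 tested (TMM-scaled) synthesis enzymes and of oligodendrocyte, neuron and anterior pituitary marker genes (scaled to library totals), with HP left of LP and marker shapes for replicates. LP replicate 3 has the highest sum of both enzymes (874 CPM) and oligodendrocyte markers (6213 CPM), whereas neuron and pituitary markers separate all HP from all LP libraries.

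Of the genes around the pathway, listed apart from the members, 91 of 102 were gene names of the tables and 58 had enough counts. Calls went to 9 genes as higher in HP (15.5%) and to 18 as lower (31.0%), against a background of 27.1% and 24.1%. Of these 27 calls, 14 held without any one library. The 9 became 15 without LP replicate 3 (background 29.7%). The 18 became 11 and 10 without HP replicates 1 and 2 (background 15.7% and 14.8%). The filter on low counts bears on these shares too, which are no independent support. GRAMD1C (1, 4 and 2 counts) and CAV2 (9, 6 and 5 counts) were below 4.21 CPM of library totals in every HP library. The same held for NCEH1 (6, 11 and 5 counts) and for ACSL3, whose counts are given below. LRPAP1 was below that level in HP replicates 1 and 3, NR1H2 in HP replicates 2 and 3 and VPS4A in HP replicate 2. OSBP2 had 2, 5 and 11 counts in LP, below that level in LP replicates 1 and 2. LRP8 (8, 26 and 6 counts in LP) was below it in LP replicates 1 and 3. COQ2, an enzyme of coenzyme Q synthesis, was 1.61-fold lower in HP (adjusted p = 0.0323, edgeR), and its call was lost without HP replicates 1, 2 or 3 or LP replicate 1 (adjusted p from 0.0552 to 0.173, edgeR).

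Calls in lipoprotein uptake were split, with 2 higher and 2 lower in HP among 9 tested genes (22.2% each, background 27.1% higher and 24.1% lower). The receptors SORL1 and LRP8, both expressed by neurons, were 3.84-fold and 4.45-fold higher in HP (adjusted p = 0.00233 and 0.0158, edgeR). LRP8 was not called without HP replicate 1 (adjusted p = 0.0583) and was 8.54-fold higher without LP replicate 2. LRPAP1, a chaperone of these receptors, was 9.03-fold lower in HP (adjusted p = 7.37e-04) and SORT1, a sorting receptor, 2.74-fold lower (adjusted p = 0.0108, edgeR), or not called without HP replicate 2 (adjusted p = 0.0588).

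Genes of intracellular sterol transport went both ways, with 4 of 14 higher (28.6%, background 27.1%) and 6 lower in HP (42.9%, background 24.1%). OSBP2, an oxysterol-binding protein, and GRAMD1B, which carries sterol from the plasma membrane to the endoplasmic reticulum, were 9.41-fold and 6.69-fold higher (adjusted p = 0.00299 and 0.00461, edgeR), or 16.2-fold and 11.6-fold without LP replicate 3. GRAMD1C, a relative of GRAMD1B, had 1, 4 and 2 counts in HP, against 19, 18 and 11 in LP and was 9.05-fold lower in HP (adjusted p = 0.00224, edgeR). OSBPL6, another oxysterol-binding relative, was 2.75-fold higher in HP (adjusted p = 0.00486, edgeR). VPS4A, an ATPase of endosomal sorting, was 6.77-fold lower (adjusted p = 0.00157), and CAV2, a caveolin, 26.1-fold lower (adjusted p = 0.00568, edgeR), or 13.7-fold without LP replicate 3.

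Among lipoprotein and efflux genes 2 of 8 were higher in HP (25.0%, background 27.1%) and 4 lower (50.0%, background 24.1%). LCAT, which esterifies cholesterol on lipoproteins, was 3.37-fold higher (adjusted p = 0.0324, edgeR), or by a log2 fold change of 2.68 without LP replicate 3 against 1.75 with it, and was not called without HP replicates 1, 2 or 3 or LP replicate 1 (adjusted p from 0.0714 to 0.0821). NR1H2, the liver X receptor beta that switches on ABCA1, was 4.57-fold lower (adjusted p = 0.00455, edgeR), and NCEH1, a cholesteryl ester hydrolase, 3.84-fold lower (adjusted p = 0.00891, edgeR), not called without HP replicate 1 (adjusted p = 0.0516). LPCAT3, a phospholipid acyltransferase, was 1.98-fold higher (adjusted p = 0.0213, edgeR), not called without HP replicate 1 or 2 (adjusted p = 0.0641 and 0.0506). APOA1, the main protein of high-density lipoprotein, had 45, 40 and 41 counts in HP, against 175, 29 and 1408 in LP. Its groups overlapped through LP replicate 2, and its 18.3-fold lower level in HP (adjusted p = 0.0290, edgeR) was 3.23-fold without LP replicate 3. APOA1 was not called without HP replicates 1, 2 or 3 (adjusted p = 0.0987, 0.104 and 0.0960).

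Of 9 tested genes of SREBP processing and sterol enzyme turnover, none was higher in HP (background 27.1%) and 2 were lower (22.2%, background 24.1%). PGRMC1, a haem-binding partner of sterol enzymes, was 3.47-fold lower (adjusted p = 0.00328, edgeR), and TRIM13, a ubiquitin ligase, 2.85-fold lower (adjusted p = 0.0353, edgeR), or 4.30-fold without HP replicate 3, with its call lost without HP replicate 1 or 2 or LP replicate 1 or 2 (adjusted p from 0.0562 to 0.158). MBTPS2, the protease that frees SREBP in the Golgi, was not called (adjusted p = 0.0973, edgeR), and was 1.90-fold lower in HP without LP replicate 3 (adjusted p = 0.0107, edgeR). In the oxysterol list CH25H, the cholesterol 25-hydroxylase, was the 1 call among 3 tested genes (6.39-fold lower, adjusted p = 0.0301, edgeR, background 24.1%). It was not called without HP replicates 1, 2 or 3 or LP replicate 1, and in the last case was 3.39-fold lower (adjusted p = 0.0983).

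In fatty acid synthesis, FASN, the fatty acid synthase, had 512, 553 and 729 counts in HP, against 65, 47 and 105 in LP. FASN was 5.86-fold higher in HP (log2 fold change 2.55, adjusted p = 0.00155, edgeR). Among the 11 tested sterol synthesis enzymes, 1 was called in the same direction (TM7SF2), 5 in the opposite one and 5 were not called. ACSL3, an acyl-CoA synthetase of lipid droplets, had 5, 6 and 10 counts in HP, against 49, 55 and 75 in LP and was 11.8-fold lower (adjusted p = 8.36e-04, edgeR). The other 6 of 8 tested genes were not called with all libraries, which left 12.5% in each direction (background 27.1% higher and 24.1% lower). SCD, the stearoyl-CoA desaturase, had 205, 266 and 254 counts in HP, against 65, 57 and 788 in LP, with LP replicate 3 above all other libraries and LP replicates 1 and 2 below HP (adjusted p = 0.476, edgeR). SCD was called as 2.85-fold higher in HP once LP replicate 3 was left out (adjusted p = 9.02e-04, edgeR).

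The scaling shifted the balance of calls over all genes. Of these calls, 52.9% were higher in HP with TMM factors, 63.0% with library totals alone and 38.4% with deposited TPM. Library totals put the median of all features at a log2 fold change of 0.27, and TPM, tested with limma on log2(TPM + 1), at -0.27. Members called lower and higher in HP were 8 and 1 of 19 with library totals (background 18.4% and 31.4%). With TPM they were 8 and 2 of 17 (background 31.0% and 19.3%). IDI1, TSPO and TM7SF2 kept their call in every alternative. INSIG2 and NPC2 kept theirs in each alternative that gave them a value. The setting with at least 10 counts in every library gave them none, so it could not test their calls. These p-values measure the spread between 3 sheep per breed, given by the design text as separate animals.

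**Figure D4:**
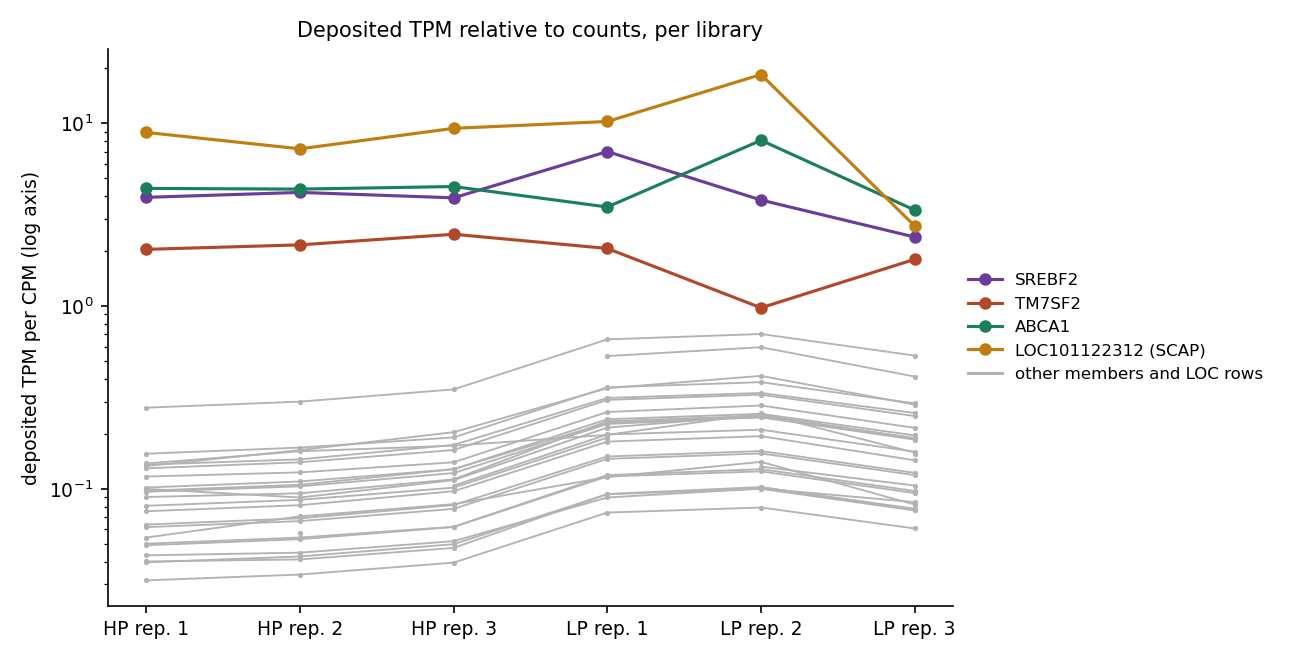
Deposited TPM divided by CPM for each member and LOC row in each library, on a log axis, with HP libraries left of LP libraries and a line joining the values of a gene. Most genes (grey) share one profile that is higher in LP, whereas SREBF2, TM7SF2, ABCA1 and LOC101122312 (annotated as SCAP) lie above it and follow other profiles.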

How the data were processed

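Gene expression was measured in 6 samples labelled hypothalamus, grouped as HP and LP by the labels' group field. Per the labels' protocols, full-length cDNA was amplified before Oxford Nanopore sequencing. The submitters' processing notes name minimap2 2.17-r941. For the counting tool, build, annotation and filters, nothing is given in those sources. The deposited table of estimated counts was not scaled between samples. The deposited TPM values were scaled by the authors to a fixed sum per sample, with their use of transcript length unknown. Levels were therefore not compared between genes.

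Estimated counts were rounded to whole numbers, which moved a total by at most 101 counts. Rounded totals were 2332067, 2732911 and 2642721 in HP replicates 1, 2 and 3 and 2284589, 2419526 and 1981644 in LP replicates 1, 2 and 3. Amplified reads are not independent molecules, so limits from 3 counts cover counting error only. Replicates were not duplicates: within groups, the lowest chi-square per degree of freedom of any pair was 5.69.

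All features were fitted in R 4.3.3 with edgeR 4.0.16 (filterByExpr, TMM factors, quasi-likelihood test, two-sided, Benjamini-Hochberg adjustment over the 13078 features tested, threshold 0.05). Fold changes are HP over LP, and SE was taken from the fold change and its F statistic. Alternatives used DESeq2 1.42.0, limma 3.58.1 (voom, and log2(TPM + 1) or log2(TPM + 0.1)), other scaling and filters, and left out each library in turn. The scripts were tested on simulated data. Member CPM are TMM-scaled, summed CPM of marker lists use library totals. The members and lists were chosen with earlier results of these data known. All members were named, and of other lists the called genes with the smallest p, at most 3 in each direction, except some that are not reported here. MBTPS2 and SCD, which were not called, were named after their values were seen, as were the rows with LOC names. Neither genome nor promoter and protein sequences were used here.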

Additional observations from a re-analysis of the deposited data

How the results depend on the processing

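Across 17 alternatives, 264 of 314 fitted values of the 19 tested members kept their direction and side of the threshold, 21 calls were lost, 16 were gained and 13 values turned, all of them values that were not called with all libraries. Members called lower in HP were 9, and 5 to 11 when a library was left out (lowest without HP replicate 2 or 3, background 14.8% and 18.2%). They were 4 with at least 10 counts in every library (background 22.5%), where fewer members were tested. With all 27 members tested they were 12 with no filter (background 14.9%) and 13 with TPM and no filter (background 22.2%). Members called higher in HP were 1 (background 27.1%). They were 2 with DESeq2, limma-voom, no low-count filter, at least 10 counts in every library and each TPM setting (background 10.3% to 28.5%). Leaving out a library gave 1 to 4, the most without LP replicate 3 (background 29.7%). Other genes of the pathway called higher in HP were 9 (background 27.1%), and 6 to 15 with a library left out (background 19.3% to 29.7%). Those called lower were 18 (background 24.1%), and 10 to 22 with a library left out (background 14.8% to 27.2%). For FDPS, FDFT1 and MSMO1 the call was lost with limma-voom (adjusted p = 0.0529, 0.0648 and 0.0637), and for FDPS with library totals (adjusted p = 0.0575).

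ACAT2, at a log2 fold change of -0.12 with all libraries, turned to 0.076 with limma-voom, 0.10 with library totals and 0.087 with no filter, and ran from -0.43 to 0.50 when a library was left out (0.061 without HP replicate 1). SQLE turned to -0.40 with log2(TPM + 1), with and without a filter, and -0.41 with log2(TPM + 0.1), and ran from -0.017 (LP replicate 1 left out) to 0.97 (LP replicate 3 left out). LSS turned to -0.21 with TPM and no filter, and ran from -0.031 to 0.81 for the same libraries. INSIG1 ran from -1.11 to 0.054 and MVD from -1.37 to 0.30, both highest without LP replicate 3. The cause was not tested. In TPM, the oligodendrocyte markers summed to 130, 86.3 and 99.0 in HP, against 55.7, 6.45 and 899.8 in LP, with LP replicate 3 again apart. FDFT1, SC5D, INSIG2, STARD4 and NPC2 have no value with at least 10 counts in every library, nor LSS and SC5D with the filter on TPM. No paired analysis was possible because the labels give no number that HP and LP samples share.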

Other observations

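Deposited TPM stood higher relative to counts in SREBF2, TM7SF2 and ABCA1 than in the other members. TPM per CPM (of library totals) had a median of 0.369 over all features tested, and it was above 1 in 26.1% of them. Among the members it was above 1 in SREBF2 (median 3.92 over the 6 libraries), TM7SF2 (2.05) and ABCA1 (4.38), and it was 9.15 in LOC101122312, annotated as SCAP. In the other members the median ratio lay at 0.533 or below. For typical members such as MSMO1 the ratio was 0.0965, 0.103 and 0.122 in HP, against 0.226, 0.246 and 0.186 in LP, so that TPM stood higher relative to counts in every LP library. For SREBF2 it was 3.93, 4.19 and 3.91 in HP, against 7.00, 3.80 and 2.39 in LP, and for LOC101122312 8.91, 7.25 and 9.38 in HP, against 10.2, 18.5 and 2.74 in LP. SREBF2 had 125, 155 and 166 TPM in HP, against 153, 29.9 and 61.4 TPM in LP, and its groups overlapped in TPM but not in CPM. The transcript models behind these values were not used here.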
